A study of Homo sapiens with 13 samples.

Results

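The genes described here build cholesterol and fatty acids. They were chosen by symbol from a list of 31 names, of which 30 had an entry among the 22613 gene entries of the files; SC5DL, the older name of SC5D, had no entry of its own. They comprised 17 enzymes of the sterol branch, 8 enzymes of the fatty acid branch, the 4 regulators SREBF1, SREBF2, SCAP and INSIG1, and the sterol carrier STARD4. RNA had been sequenced from LNCaP-abl cells, a prostate cancer line kept in medium with hormone-depleted serum, 72 h after transfection with siRNA pools. There were 13 libraries, 1 with the control siRNA labelled siControl2 and 1 each with siBRCA1, siBRCA2, siCTCF, siEED, siEZH2, siFOXA1, siFOXM1, siKDM1A, siMALAT1, siPCAT1, siRAD21 and siSMARCA4, each named for its target. All groups were the same line, at the same range of passages and in the same medium. Transfection is transient, and the share of cells that took up siRNA is not given. With 1 library a group there was no replicate error, no difference was tested, and every value below describes these libraries. All 12 differences from the control also share the 1 control library.

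Cholesterol is made from acetyl-CoA through mevalonate, isoprenoid units, squalene and lanosterol, and fatty acids are made from the same acetyl-CoA by carboxylation, elongation and desaturation. The SREBP transcription factors, encoded by SREBF1 and SREBF2, switch on both branches: they wait in the endoplasmic reticulum bound to SCAP, which carries them to the Golgi for cleavage when sterols are low, while INSIG1 holds the complex back when sterols are high. SREBF2 products are known mainly for sterol genes, and the shorter SREBF1 product for fatty acid genes. Both branches are known to be active in prostate cancer cells, where androgens raise them.

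As examples, the 250 bases before the start of 6 members with a single listed start are given 5′ to 3′ from the RefSeq promoter table of build GRCh38.p14. The 6 do not stand for all members. Capitals mark CCAAT boxes, the sequence bound by NF-Y, a factor known to work with SREBP, on either strand (CCAAT or ATTGG), and sterol regulatory elements in the form TCACNCCAC on either strand. The 4 sterol-side promoters are those of SREBF2 at chr22:41832855-41833104 (plus strand), FDPS at chr1:155308616-155308865 (plus strand), MVK at chr12:109573544-109573793 (plus strand) and NSDHL at chrX:152830813-152831062 (plus strand). The 2 from the fatty acid branch are those of SCD at chr10:100346983-100347232 (plus strand) and ELOVL6 at chr4:110198616-110198865 (minus strand).
SREBF2: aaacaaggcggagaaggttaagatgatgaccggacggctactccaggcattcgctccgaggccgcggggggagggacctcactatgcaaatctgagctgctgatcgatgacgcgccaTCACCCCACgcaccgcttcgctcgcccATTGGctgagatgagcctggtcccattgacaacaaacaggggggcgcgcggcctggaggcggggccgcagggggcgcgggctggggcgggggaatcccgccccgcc
FDPS: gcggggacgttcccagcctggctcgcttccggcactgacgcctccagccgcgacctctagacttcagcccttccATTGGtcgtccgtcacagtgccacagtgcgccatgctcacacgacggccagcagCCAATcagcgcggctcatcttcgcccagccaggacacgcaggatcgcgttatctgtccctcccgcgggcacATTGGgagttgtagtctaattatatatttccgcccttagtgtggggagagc
MVK: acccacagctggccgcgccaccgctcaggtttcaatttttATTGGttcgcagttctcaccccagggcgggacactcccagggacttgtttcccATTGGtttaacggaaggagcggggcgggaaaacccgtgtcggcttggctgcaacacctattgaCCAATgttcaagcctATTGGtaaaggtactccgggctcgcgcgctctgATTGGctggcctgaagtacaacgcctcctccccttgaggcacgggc
NSDHL: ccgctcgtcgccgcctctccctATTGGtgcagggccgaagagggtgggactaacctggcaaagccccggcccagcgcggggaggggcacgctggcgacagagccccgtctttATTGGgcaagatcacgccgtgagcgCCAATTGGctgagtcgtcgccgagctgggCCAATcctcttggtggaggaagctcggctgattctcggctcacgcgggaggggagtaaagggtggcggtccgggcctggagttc
SCD: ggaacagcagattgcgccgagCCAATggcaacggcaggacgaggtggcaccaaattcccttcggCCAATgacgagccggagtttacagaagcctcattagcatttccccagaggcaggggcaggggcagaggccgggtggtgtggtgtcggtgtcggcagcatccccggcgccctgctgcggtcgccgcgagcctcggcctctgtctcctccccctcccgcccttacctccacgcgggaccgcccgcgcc
ELOVL6: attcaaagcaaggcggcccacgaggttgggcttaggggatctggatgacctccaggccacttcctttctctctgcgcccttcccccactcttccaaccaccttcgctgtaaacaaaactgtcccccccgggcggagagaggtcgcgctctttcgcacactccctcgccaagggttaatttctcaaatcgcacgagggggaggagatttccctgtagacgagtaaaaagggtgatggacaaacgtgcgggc

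Among the 26 members with an entry in that table, the SREBF2 promoter alone held TCACNCCAC, a form found before the start of 1.09% of 27305 genes. A CCAAT box stood before 12 of 14 sterol enzymes (85.7%) and before 4 of 7 fatty acid enzymes (57.1%), against 37% of all genes in the table and 41.9% of the 9510 genes that were also measured here at a mean of at least 0.5 FPKM. FPKM is fragments per transcript length and sequencing depth, a level that can be compared between genes. MVK and NSDHL had 5 CCAAT boxes each and FDPS had 3, with a pair in NSDHL that share bases in the palindrome CCAATTGG, and ELOVL6 had none. The sterol enzymes PMVK and CYP51A1, whose promoters are not shown, also had none. The GC box GGGCGG, on either strand, stood before 25 of the 26 (96.2%), against 73.2% of the measured genes, and the E-box CACGTG before 3 (11.5% against 11.2%). A gene, member or background, was counted if any of its listed starts had the form, and some genes have several starts. HMGCS1, DHCR7, IDI1 and ACACA each also had a start with no CCAAT box. Each form was searched on its own, so matches to different forms may share bases. These matches are letters in a window and were not tested as binding sites. ACAT2, FDFT1, SQLE and FASN had no entry in the table.

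All 30 members had a mean of at least 0.5 FPKM, as did 16432 of all entries, which serve as the background. The libraries were checked by their targets: 8 of the 11 target genes analysed were lowest in their own library. BRCA1 and BRCA2 were also below the control in their own libraries. BRCA1 was at 1.83 FPKM in siBRCA1 against 11.1 in the control, and BRCA2 at 1.23 FPKM in siBRCA2 against 3.25. Some other libraries were lower still: BRCA1 was the 3rd lowest of 13 in its own library and BRCA2 the 9th lowest. MALAT1 was higher in the library labelled siMALAT1 (21.7 FPKM) than in the control (16.4 FPKM), which goes against that label. PCAT1 as a gene was not analysed here. Luminal prostate markers were present, with KRT8 between 84.2 and 223 FPKM and HOXB13 between 77.6 and 159.9 FPKM, while KLK3, which encodes prostate-specific antigen, was near 0 in all 13 (0.017 to 0.52 FPKM). The adipocyte markers ADIPOQ, PLIN1 and LEP summed to 1.33 to 1.99 FPKM over the libraries, and COL1A1, PECAM1, PTPRC and KRT14 were each at or below 3.14 FPKM in every library. ENO2, a neuroendocrine marker also made by other cells, ran from 23.2 to 54.6 FPKM and was highest in the control. SYP, the other neuroendocrine marker with an entry, was between 0.15 and 0.69 FPKM, with 0.45 in the control. The part of ENO2 in differences from the control was not tested. A lower level in bulk RNA cannot be told apart from fewer cells that express the gene.

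The median of the fatty acid enzymes stood lower than the control in every knockdown library, while that of the sterol enzymes stood closer to it. Of the 8 fatty acid enzymes, 8 were below the control in siBRCA1 and the library labelled siMALAT1, 5 in siCTCF and 6 or 7 in the rest. The median difference of the 8 fatty acid enzymes on the log2(FPKM + 1) scale was below 0 in 12 of 12 knockdowns, from -0.78 in siKDM1A and -0.75 in siFOXA1 to -0.15 in siBRCA2. That of the 17 sterol enzymes ran from -0.30 in siFOXM1 to 0.12 in siBRCA2 and was below 0 in 7 of 12. For all 16432 genes the medians lay between 0.0023 and 0.048. The sterol median was the higher of the branch medians in 12 of 12 knockdowns, by 0.78 in siBRCA1, 0.66 in siKDM1A, 0.51 in siFOXA1, 0.46 in siEZH2, 0.40 in siPCAT1, 0.36 in siEED, 0.28 in siBRCA2, 0.25 in siCTCF, 0.22 in siSMARCA4, 0.21 in siRAD21, 0.20 in the library labelled siMALAT1 and 0.031 in siFOXM1. With ACLY, ACACA, FASN, ELOVL6 and SCD alone as the fatty acid branch, the siFOXM1 gap was -0.13 and the siCTCF gap 0.039.

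This order depends on the control library. When each knockdown was set against the other 11 by their median, the fatty acid median was below 0 in 5 of 12 libraries and the sterol median was the higher one in 5 of 12. The gap of siBRCA1 was then 0.49, and that of siFOXM1 was -0.45, with the sterol median at -0.33 and the fatty acid median at 0.11. These 2 libraries therefore stood at the ends of the range with either reference. The control was above all 12 knockdowns for 4 of the 30 members (13.3%), namely FASN, FADS1, FADS2 and FDPS, against 5.32% of all genes. It was below all 12 for 0 members, against 4.7% of all genes. With a single control, an unusual control library and an effect common to all knockdowns cannot be told apart. Other gene lists also lay on 1 side of the control throughout: the median of 12 G2/M genes was below 0 in 12 of 12 knockdowns (-3.42 to -0.27) and that of 10 interferon-stimulated genes above 0 in 12 of 12 (0.23 to 5.69). The median of 8 ATF4 targets, stress-response genes, was below 0 in 1 of 12 (-0.16 to 0.69). Their part in the branch medians was not tested.

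**Figure D1:**
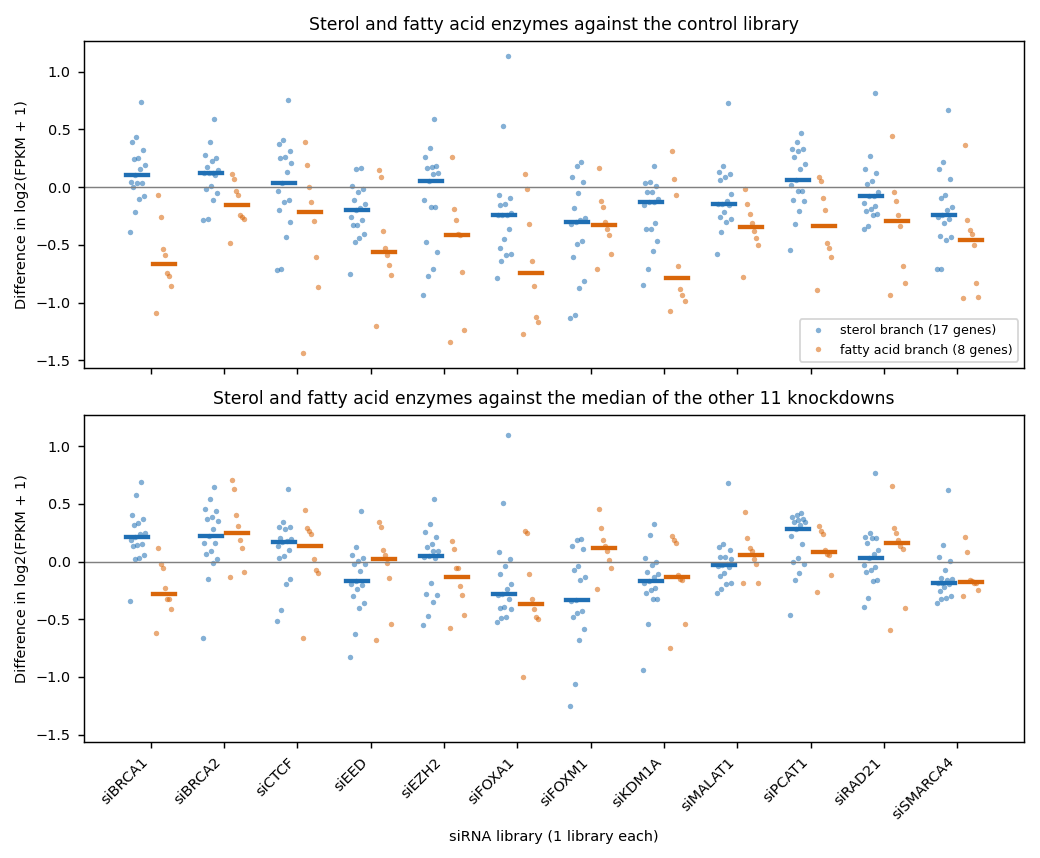
Differences in log2(FPKM + 1) of the 17 sterol enzymes (blue) and 8 fatty acid enzymes (orange) in each knockdown library, against the control (upper panel) and against the median of the other 11 knockdowns (lower panel); each point is 1 gene and each bar the branch median. Against the control the orange bars lie below 0 in 12 of 12 libraries, and against the other knockdowns in 5 of 12.

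Of the regulators, SREBF2 was lowest in siFOXM1, which also had the lowest sterol median. It was at 62.1 FPKM in the control, 67.3 in siBRCA1, 74.5 in siBRCA2, 71.2 in siCTCF, 50.3 in siEED, 75.6 in siEZH2, 43.7 in siFOXA1, 38.4 in siFOXM1, 70.5 in siKDM1A, 64.8 in the library labelled siMALAT1, 67.2 in siPCAT1, 67.3 in siRAD21 and 68.8 in siSMARCA4. Only siFOXM1 (-0.68), siFOXA1 (-0.50) and siEED (-0.30) lay below the control, and the sterol median was below 0 in these 3. The sterol median was also below 0 in 4 libraries where SREBF2 was above the control, siSMARCA4, siKDM1A, siRAD21 and the library labelled siMALAT1. SREBF1 followed another order, at 84.5 FPKM in the control, 48.6 in siBRCA1, 72.5 in siBRCA2, 66.6 in siCTCF, 58.0 in siEED, 65.6 in siEZH2, 92.0 in siFOXA1, 58.8 in siFOXM1, 87.1 in siKDM1A, 70.3 in the library labelled siMALAT1, 63.2 in siPCAT1, 75.3 in siRAD21 and 64.5 in siSMARCA4. It was lowest in siBRCA1 (-0.78) and above the control in siFOXA1 and siKDM1A only, the 2 libraries with the lowest fatty acid medians.

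INSIG1, both a brake on SREBP transport and itself a known SREBP target, had the widest range of the regulators. It stood at 119.8 FPKM in the control, 114 in siBRCA1, 122 in siBRCA2, 98.4 in siCTCF, 81.4 in siEED, 61.5 in siEZH2, 48.4 in siFOXA1, 120.1 in siFOXM1, 86.7 in siKDM1A, 84.2 in the library labelled siMALAT1, 81.4 in siPCAT1, 84.2 in siRAD21 and 60.3 in siSMARCA4. The siFOXA1 (-1.29), siSMARCA4 (-0.98) and siEZH2 (-0.95) libraries were the lowest, and siBRCA1, siBRCA2 and siFOXM1 were level with the control. SCAP moved least, from 19.7 FPKM in siBRCA2 through a median of 21.3 to 30.6 in siEZH2, with 20.9 in the control. Its highest libraries were siEZH2 (0.53), siKDM1A (0.42) and siSMARCA4 (0.39).

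**Figure D2:**
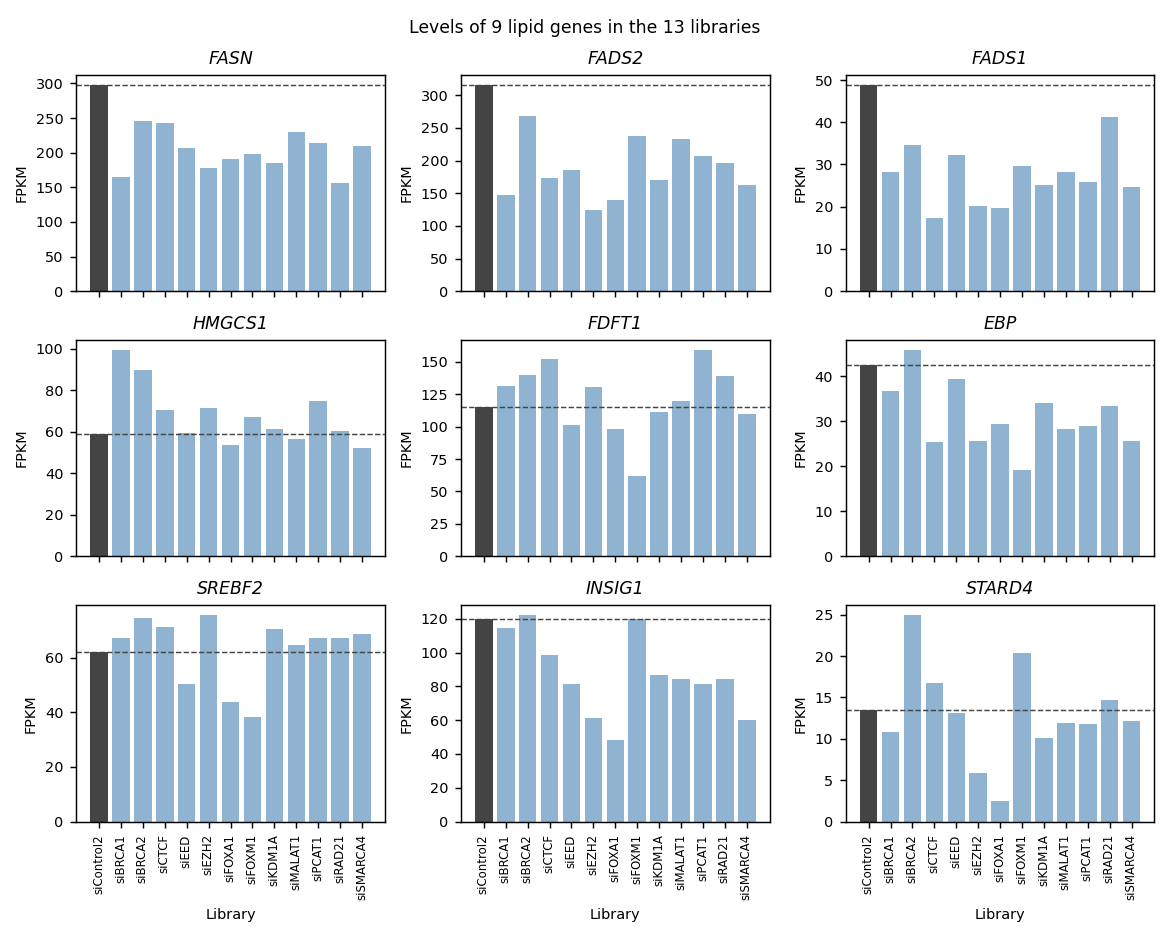
FPKM of 9 members in the 13 libraries, with the control as a dark bar and its level as a dashed line; bars start at 0 and stand for 1 library each. FASN, FADS2 and FADS1 were highest in the control, SREBF2, FDFT1 and EBP lowest in siFOXM1, and INSIG1 and STARD4 lowest in siFOXA1.

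The mevalonate steps, from acetyl-CoA to farnesyl diphosphate, did not move as a block. HMGCS1, which makes HMG-CoA, was at 59.1 FPKM in the control, 99.3 in siBRCA1, 89.5 in siBRCA2, 70.4 in siCTCF, 59.6 in siEED, 71.2 in siEZH2, 53.4 in siFOXA1, 67.1 in siFOXM1, 61.1 in siKDM1A, 56.6 in the library labelled siMALAT1, 74.7 in siPCAT1, 60.1 in siRAD21 and 52.2 in siSMARCA4. It was highest in siBRCA1 (0.74) and siBRCA2 (0.59) and lower than the control in only 3 libraries. FDPS, which joins isoprenoid units into farnesyl diphosphate, was highest in the control at 99.0 FPKM and stood at 75.6 in siBRCA1, 97.7 in siBRCA2, 80.0 in siCTCF, 74.6 in siEED, 51.4 in siEZH2, 66.0 in siFOXA1, 55.8 in siFOXM1, 60.2 in siKDM1A, 82.8 in the library labelled siMALAT1, 96.5 in siPCAT1, 83.6 in siRAD21 and 60.2 in siSMARCA4. Its lowest libraries were siEZH2 (-0.93), siFOXM1 (-0.82), siKDM1A (-0.71) and siSMARCA4 (-0.71).

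ACAT2, the cytosolic thiolase that joins acetyl-CoA units, was lower than the control in 11 of 12 libraries. It stood at 30.2 FPKM in the control, 28.5 in siBRCA1, 32.9 in siBRCA2, 26.2 in siCTCF, 23.8 in siEED, 17.2 in siEZH2, 17.1 in siFOXA1, 21.6 in siFOXM1, 16.3 in siKDM1A, 24.2 in the library labelled siMALAT1, 27.9 in siPCAT1, 25.6 in siRAD21 and 21.7 in siSMARCA4. PMVK, the phosphomevalonate kinase, stood apart in 1 library, at 55.02 FPKM in siCTCF (0.76) against 32.1 in the control. Elsewhere it was at 35.9 in siBRCA1, 35.7 in siBRCA2, 36.0 in siEED, 36.2 in siEZH2, 30.02 in siFOXA1, 28.1 in siFOXM1, 29.3 in siKDM1A, 35.2 in the library labelled siMALAT1, 25.5 in siPCAT1, 35.9 in siRAD21 and 33.8 in siSMARCA4. The remaining mevalonate enzymes had narrower ranges. The kinase MVK ran from 11.3 FPKM in siFOXA1 to 19.7 in siBRCA2 with 14.8 in the control. The decarboxylase MVD ran from 15.7 in siEZH2 to 25.7 in siBRCA2 with 23.6 in the control, and the isomerase IDI1 from 51.3 in siFOXM1 to 94.5 in siPCAT1 with 78.5 in the control.

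From squalene to cholesterol, siFOXM1 was the lowest library for 4 of 10 enzymes, FDFT1, SC5D, EBP and NSDHL. FDFT1, the squalene synthase that commits carbon to sterols, was at 115 FPKM in the control, 131 in siBRCA1, 139.8 in siBRCA2, 152 in siCTCF, 101 in siEED, 130.4 in siEZH2, 98.3 in siFOXA1, 62.0 in siFOXM1, 111 in siKDM1A, 119.8 in the library labelled siMALAT1, 159 in siPCAT1, 139 in siRAD21 and 109 in siSMARCA4. The siFOXM1 level (-0.88) lay apart from the other 12. SC5D, a sterol desaturase late in the pathway, was at 15.8 FPKM in the control, 21.1 in siBRCA1, 18.1 in siBRCA2, 20.0 in siCTCF, 12.8 in siEED, 13.9 in siEZH2, 23.3 in siFOXA1, 6.68 in siFOXM1, 15.9 in siKDM1A, 17.3 in the library labelled siMALAT1, 16.1 in siPCAT1, 13.6 in siRAD21 and 17.8 in siSMARCA4. Its siFOXM1 level (-1.13) was again apart from the other libraries, and its highest level was in siFOXA1.

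EBP, the sterol isomerase, was at 42.6 FPKM in the control, 36.6 in siBRCA1, 45.8 in siBRCA2, 25.5 in siCTCF, 39.4 in siEED, 25.6 in siEZH2, 29.3 in siFOXA1, 19.2 in siFOXM1, 34.1 in siKDM1A, 28.3 in the library labelled siMALAT1, 28.9 in siPCAT1, 33.4 in siRAD21 and 25.7 in siSMARCA4. It was lowest in siFOXM1 (-1.11) and above the control in siBRCA2 alone. TM7SF2, a sterol reductase, did not follow the branch: it lay on the same side of the control as the sterol median in 6 of 12 knockdowns. It stood at 117 FPKM in the control, 121 in siBRCA1, 96.8 in siBRCA2, 114 in siCTCF, 86.3 in siEED, 176 in siEZH2, 259 in siFOXA1, 95.7 in siFOXM1, 79.4 in siKDM1A, 195 in the library labelled siMALAT1, 154 in siPCAT1, 207 in siRAD21 and 186 in siSMARCA4. It was the only member at least 2-fold above the control anywhere, in siFOXA1 (1.14).

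The other enzymes of this stretch lay within narrower limits. The squalene epoxidase SQLE ran from 23.0 FPKM in siRAD21 to 40.6 in siBRCA1, with 29.7 in the control. The lanosterol synthase LSS was lowest in siEED, at 20.4 FPKM (-0.76) against 35.1 in the control, and highest in siPCAT1 at 39.4. CYP51A1, the lanosterol demethylase, was lowest in siCTCF (32.7 FPKM, -0.71) and siFOXA1 (35.7, -0.59) against 54.2 in the control. NSDHL, which removes sterol methyl groups, ran from 12.8 FPKM in siFOXM1 to 23.1 in siPCAT1 with 18.4 in the control. The ketosteroid reductase HSD17B7 ran from 9.80 in siKDM1A to 14.1 in siCTCF with 10.6 in the control. DHCR7, which acts at the last step of its route to cholesterol, was lowest in siFOXA1 (28.8 FPKM, -0.64) and highest in siEZH2 (51.5), with 45.6 in the control.

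In the fatty acid branch, the polyunsaturated fatty acid desaturases FADS1 and FADS2 and the fatty acid synthase FASN were below the control in all 12 knockdowns. FADS2 was at 316 FPKM in the control, 148 in siBRCA1, 268 in siBRCA2, 173 in siCTCF, 186 in siEED, 124 in siEZH2, 139.8 in siFOXA1, 237 in siFOXM1, 171 in siKDM1A, 233 in the library labelled siMALAT1, 208 in siPCAT1, 197 in siRAD21 and 163 in siSMARCA4. Its largest differences were in siEZH2 (-1.34), siFOXA1 (-1.17) and siBRCA1 (-1.09). FADS1 was at 48.9 FPKM in the control, 28.2 in siBRCA1, 34.6 in siBRCA2, 17.4 in siCTCF, 32.2 in siEED, 20.1 in siEZH2, 19.6 in siFOXA1, 29.6 in siFOXM1, 25.1 in siKDM1A, 28.2 in the library labelled siMALAT1, 25.9 in siPCAT1, 41.3 in siRAD21 and 24.7 in siSMARCA4. It was lowest in siCTCF (-1.44), siFOXA1 (-1.28) and siEZH2 (-1.24) and nearest the control in siRAD21 (-0.24). FADS1 and FADS2 overlap each other in the RefSeq annotation, and the counting is not known to have used strand, so reads may have been split between them.

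FASN, which builds palmitate, stood at 298 FPKM in the control, 164 in siBRCA1, 246 in siBRCA2, 243 in siCTCF, 206 in siEED, 178 in siEZH2, 191 in siFOXA1, 199 in siFOXM1, 185 in siKDM1A, 229 in the library labelled siMALAT1, 213 in siPCAT1, 156 in siRAD21 and 209.8 in siSMARCA4. The lowest were siRAD21 (-0.93) and siBRCA1 (-0.85). ELOVL6, which lengthens palmitate, was at 63.2 FPKM in the control, 41.6 in siBRCA1, 68.4 in siBRCA2, 41.3 in siCTCF, 26.8 in siEED, 47.3 in siEZH2, 34.5 in siFOXA1, 51.2 in siFOXM1, 29.5 in siKDM1A, 44.3 in the library labelled siMALAT1, 43.4 in siPCAT1, 49.7 in siRAD21 and 35.1 in siSMARCA4. It was lowest in siEED (-1.21) and siKDM1A (-1.07) and above the control in siBRCA2 alone. ACLY, which makes cytosolic acetyl-CoA from citrate and so feeds both branches, was at 122 FPKM in the control, 84.2 in siBRCA1, 102 in siBRCA2, 139.8 in siCTCF, 130.3 in siEED, 91.2 in siEZH2, 55.6 in siFOXA1, 113 in siFOXM1, 117 in siKDM1A, 98.5 in the library labelled siMALAT1, 127 in siPCAT1, 112 in siRAD21 and 100.1 in siSMARCA4. Its siFOXA1 level (-1.12) was apart from the rest.

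The stearoyl-CoA desaturase SCD ran from 168 FPKM in siKDM1A (-0.98) and 187 in siRAD21 (-0.83) to 334 in the control and in siCTCF. ACSL3, which activates fatty acids with coenzyme A, ran from 24.4 FPKM in siBRCA1 (-0.74) and 25.7 in siEED (-0.67) to 45.1 in siFOXA1, with 41.5 in the control. ACACA, the acetyl-CoA carboxylase that makes the malonyl-CoA used by FASN, was the exception in its branch, above the control in 8 of 12 libraries and between 23.8 FPKM in siFOXA1 and 40.9 in siRAD21, with 29.9 in the control. FASN, which acts next, was highest in the control, so any gene above the control lay on the other side from it. Over the 13 libraries, Pearson's r of log2(FPKM + 1) for FASN with ACACA was -0.17.

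STARD4, a soluble carrier that moves cholesterol between membranes and a known SREBP target, had the widest range of all 30. It was at 13.5 FPKM in the control, 10.9 in siBRCA1, 24.9 in siBRCA2, 16.8 in siCTCF, 13.2 in siEED, 5.82 in siEZH2, 2.49 in siFOXA1, 20.4 in siFOXM1, 10.1 in siKDM1A, 11.9 in the library labelled siMALAT1, 11.8 in siPCAT1, 14.7 in siRAD21 and 12.1 in siSMARCA4. The siFOXA1 (-2.06) and siEZH2 (-1.09) libraries were low, and siBRCA2 (0.84) and siFOXM1 (0.56) were high.

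**Figure D3:**
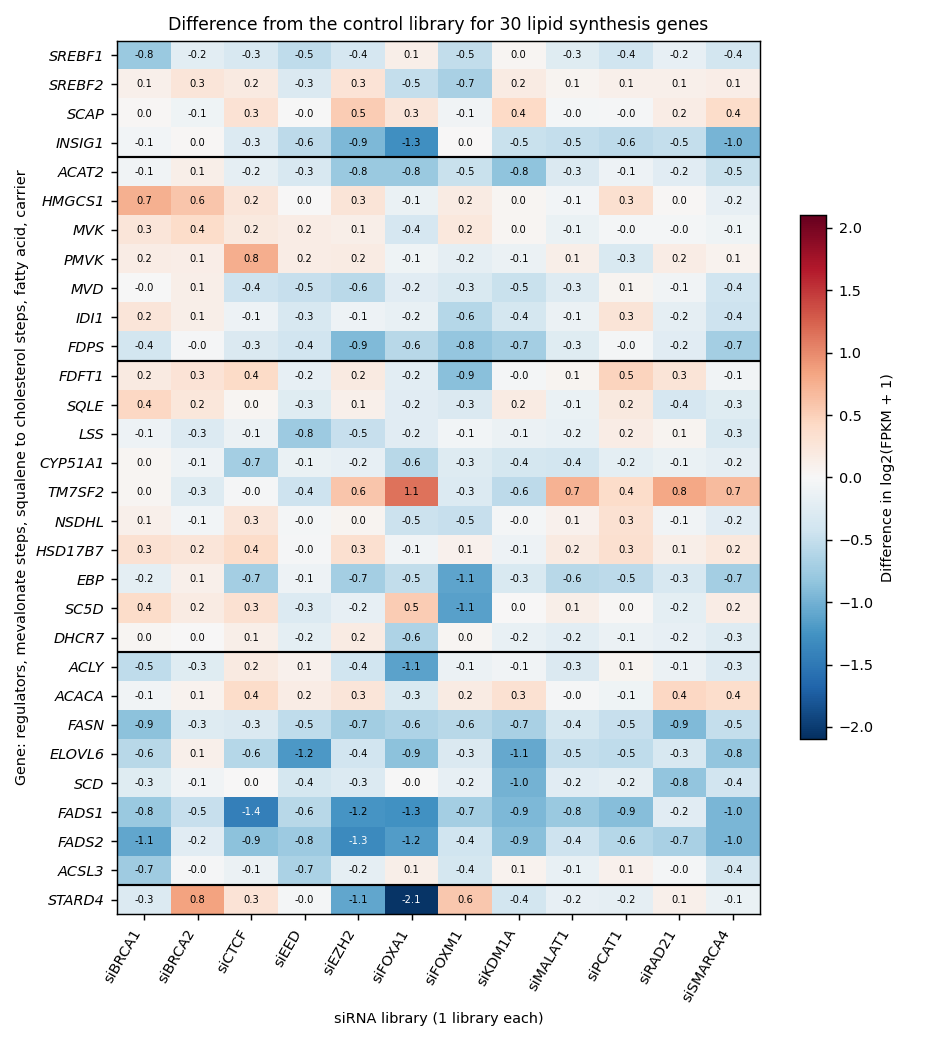
Difference from the control in log2(FPKM + 1) for the 30 members (rows, grouped by role) in the 12 knockdown libraries (columns), with blue lower and red higher than the control. STARD4 in siFOXA1 (-2.06) is the lowest cell and TM7SF2 in siFOXA1 (1.14) the highest.

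Of the 360 pairs of a member and a knockdown, 15 lay at least 2-fold from the control (1 unit on the log2 scale), 14 lower and 1 higher, and they fell on 9 members. The shares were 3.89% lower and 0.278% higher, against 2.73% and 1.81% of pairs over all genes. The lower share was thus near the background at the 2-fold cut, with small RNA entries counted in that background. At 1.5-fold the members' lower share was above that of all genes in every library but siBRCA2 and the library labelled siMALAT1. Against the other 11 knockdowns, 10 of these 15 moved by more than the gene's SD over the knockdowns, to between -0.79 and -0.33, so they rest partly on the level in the control. The siFOXA1 library held 6 of them: STARD4, INSIG1, FADS1, FADS2 and ACLY were at least 2-fold lower (5 of 30, 16.7%, against 5.03% of all genes) and TM7SF2 was 2-fold higher (1 of 30, against 3.99%). At 1.5-fold, 10 members were lower (33.3%, against 11.7% of all genes) and 1 higher (3.33%, against 11.4%). Against the other 11 knockdowns the STARD4 difference was -1.91, that of TM7SF2 1.09 and that of INSIG1 -0.79. SC5D was the second largest increase here (0.53). Interferon-stimulated genes had a median of 4.16 in this library, G2/M genes -3.42 and 4 measurable androgen-induced genes -1.47, and their part in these differences was not tested.

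The siEZH2 library had FADS2, FADS1 and STARD4 at least 2-fold lower (3 of 30, 10%, against 3.8%) and none 2-fold higher (against 1.64%). At 1.5-fold, 8 members were lower (26.7%, against 8.04%), among them INSIG1, ACAT2, FDPS and EBP, and TM7SF2 (0.59) was higher (3.33%, against 6.13%). SCAP was also on the high side (0.53). In the siFOXM1 library most members lower by 1.5-fold were sterol enzymes, which also make up 17 of the 30 members. Its fatty acid median (-0.33) lay below its sterol median (-0.30). SC5D and EBP were 2-fold lower (6.67%, against 4.28%) and none 2-fold higher (against 3.17%). At 1.5-fold, 7 members were lower (23.3%, against 9.82%), of which 5 were sterol enzymes, 1 was SREBF2 and 1 was FADS1, and 0 were higher (against 9.1%). STARD4 (0.56) and MVK (0.22) were the highest. The G2/M medians were -3.05 in siEZH2 and -3.34 in siFOXM1, and the interferon-stimulated median was 5.69 in siFOXM1; their part was not tested.

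The siBRCA1 library separated the branches most. FADS2 was 2-fold lower (3.33%, against 1.52%) and none 2-fold higher (against 1.47%). At 1.5-fold, 6 members were lower (20%, against 5.95%), 5 of them fatty acid enzymes and the other SREBF1, while HMGCS1 was higher (3.33%, against 3.78%) and SQLE stood at 0.43. HMGCS1 was 0.69 above the other knockdowns, and FASN was -0.32 from them. In siBRCA2, 0 members were lower at 1.5-fold (against 4.66%) and STARD4 and HMGCS1 were higher (6.67%, against 4.01%). FADS1 (-0.49) and LSS (-0.28) were its lowest members. At 2-fold it had 0 in either direction, against 1.36% lower and 1.44% higher.

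The siKDM1A library had ELOVL6 2-fold lower (3.33%, against 2.15%) and SCD just inside that limit (-0.98), with none 2-fold higher (against 1.54%). At 1.5-fold, 7 members were lower (23.3%, against 7.25%), 5 of them fatty acid enzymes, and 0 were higher (against 5.59%). SCAP (0.42) and ACACA (0.32) were highest. In siEED, ELOVL6 was 2-fold lower (3.33%, against 1.5%) and 0 were 2-fold higher (against 1.66%). At 1.5-fold, 5 members were lower (16.7%, against 4.85%), namely ELOVL6, FADS2, FADS1, ACSL3 and LSS, and 0 were higher (against 4.33%). MVK and PMVK, both at 0.16, were its highest.

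For siCTCF, FADS1 was 2-fold lower (3.33%, against 3.52%) and 0 were 2-fold higher (against 1.94%). At 1.5-fold, 5 members were lower (16.7%, against 8.06%), among them FADS2 (-0.87), EBP and CYP51A1, and PMVK was higher (3.33%, against 6.41%), followed by FDFT1 (0.40). For siRAD21, which targets a cohesin subunit, 0 members were 2-fold lower (against 2.67%) or higher (against 1.56%). At 1.5-fold, FASN, SCD and FADS2 were lower (10%, against 7.03%) and TM7SF2 (0.81) was higher (3.33%, against 5.39%), with ACACA next (0.44).

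For siSMARCA4, 0 members were 2-fold lower (against 2.68%) or higher (against 1.25%). At 1.5-fold, INSIG1 (-0.98), FADS1 (-0.96), FADS2, ELOVL6, EBP and FDPS were lower (20%, against 6.05%) and TM7SF2 (0.67) was higher (3.33%, against 4.17%). SCAP stood at 0.39. The library labelled siMALAT1 had 0 members 2-fold lower (against 2.3%) or higher (against 1.07%). At 1.5-fold, FADS1 (-0.77) was lower (3.33%, against 5.07%) and TM7SF2 (0.73) higher (3.33%, against 3.48%); EBP (-0.57) and HSD17B7 (0.18) came next. For siPCAT1, 0 members were 2-fold lower (against 1.97%) or higher (against 0.992%). At 1.5-fold, FADS1 (-0.89) and FADS2 (-0.60) were lower (6.67%, against 5.03%) and 0 were higher (against 2.99%), the highest being FDFT1 (0.47) and TM7SF2 (0.39).

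The sterol enzymes varied together more than they did with the fatty acid enzymes. Pearson's r of log2(FPKM + 1) over the 13 libraries, which share a cell line and had been scaled to a common distribution, had a median of 0.30 over the 136 sterol pairs, 0.23 over the 28 fatty acid pairs and 0.11 over the 136 pairs across branches. Over all pairs of the 16432 genes the median was 0.00036. These are descriptions and carry no test. Without the control library, the medians were 0.31, 0.13 and 0.097, so the fatty acid value rests partly on the control.

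Within the sterol branch, IDI1 (r = 0.91), FDFT1 (0.80), NSDHL (0.69), ACAT2 (0.68) and FDPS (0.68) followed the mean of the other sterol enzymes most closely, and TM7SF2 (-0.15) did not. Among the regulators, SREBF2 had r = 0.67 with the sterol mean and 0.13 with the fatty acid mean. For INSIG1 the order was reversed, at 0.36 and 0.66, and STARD4 was alike at 0.23 and 0.68. SREBF1 had r = -0.17 and 0.19, and SCAP -0.27 and -0.53. In the fatty acid branch, FADS2 (0.86), FASN (0.65, and 0.43 without the control) and ELOVL6 (0.60) followed the mean of the rest, while SCD (0.11), ACSL3 (0.14) and ACACA (-0.076) did not.

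**Figure D4:**
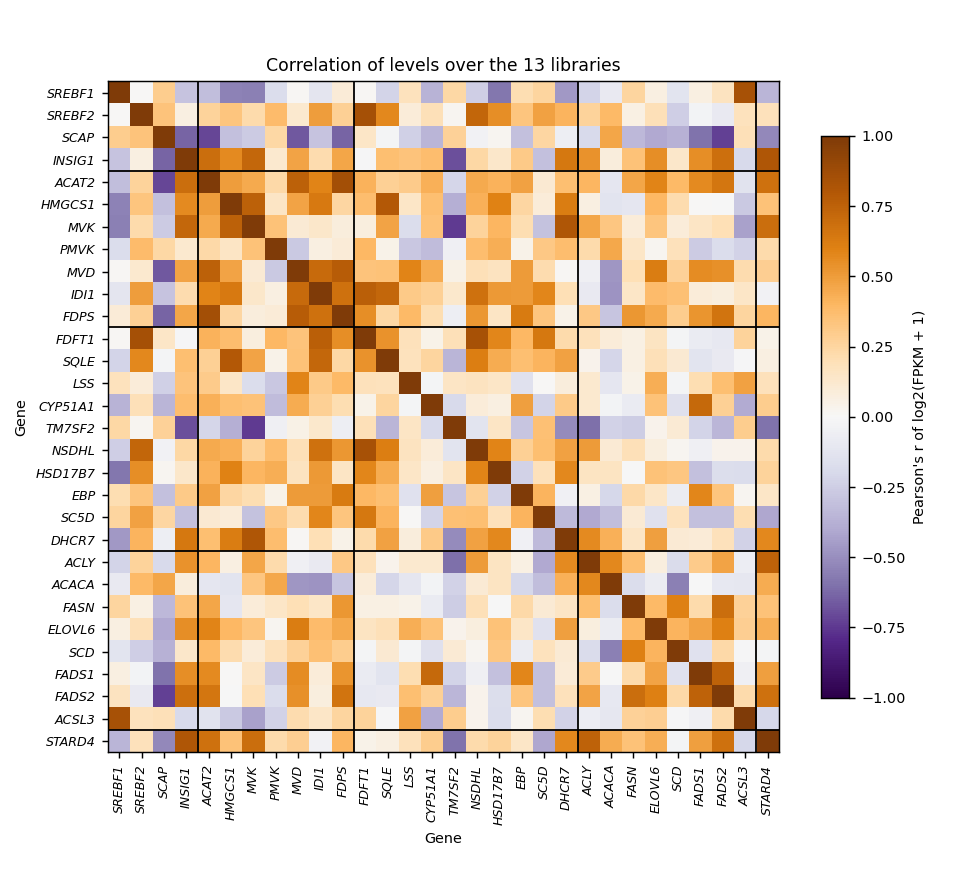
Pearson's r of log2(FPKM + 1) over the 13 libraries for each pair of the 30 members, ordered by role with lines between roles; brown is positive and purple negative. ACAT2 with FDPS is the highest pair (0.85) and MVK with TM7SF2 the lowest (-0.75).

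The very closest single pairs joined enzymes at distant steps, or a regulator or carrier with another gene, and the next ones joined enzymes at nearer steps. ACAT2 and FDPS had r = 0.85, SREBF2 and FDFT1 0.84, FDFT1 and NSDHL 0.84, SREBF1 and ACSL3 0.84, MVK and DHCR7 0.81, INSIG1 and STARD4 0.81 and HMGCS1 and SQLE 0.79. Next came MVD with FDPS (0.78), IDI1 with FDFT1 (0.76) and HMGCS1 with MVK (0.76). The pair of SREBF1 and ACSL3 was lowest in siBRCA1 and highest in siFOXA1 for both genes. The lowest values were those of MVK with TM7SF2 (-0.75), SCAP with FADS2 (-0.73) and SCAP with ACAT2 (-0.72).

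Other genes of the same pathways were seldom 2-fold from the control. A list of 14 further sterol genes held enzymes, SREBP proteases and cholesterol storage and transport genes. It also held LPIN1 and FADS3, which do not act in the sterol steps. In this list, 3 of 168 pairs of gene and knockdown were 2-fold lower (1.79%, against 2.73% of pairs over all genes) and 0 higher (against 1.81%). Its medians ran from -0.18 to 0.14. C14orf1, which encodes an endoplasmic reticulum protein thought to hold sterol enzymes together, was at 7.95 FPKM in siFOXA1 and 23.8 in the control (-1.47). SOAT1, which esterifies cholesterol for storage, was at 11.2 FPKM in siCTCF (-1.26) and 13.02 in siBRCA2 (-1.05), against 28.1 in the control. Of 18 further fatty acid genes 16 were measured at a mean of at least 0.5 FPKM, with 3 of 192 pairs 2-fold lower (1.56%), 0 higher and medians from -0.25 to 0.14. These medians were below 0 in 7 of 12 knockdowns, against 12 of 12 for the 8 enzymes of the fatty acid branch. The elongation enzymes HSD17B12 and TECR were 2-fold lower in siEZH2 (2.72 against 9.24 FPKM, -1.46) and in siFOXM1 (42.5 against 93.8 FPKM, -1.12). ACSL4, which activates arachidonic acid, was at 2.96 FPKM in siKDM1A and 9.43 in the control (-1.40).

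In the RefSeq annotation, 7 of the 30 members overlap another protein-coding gene: SREBF1, ACAT2, MVK, IDI1, ACACA, FADS1 and FADS2. No source used here says whether counting used strand, so their levels may hold reads of the overlapping genes. FDPS and HSD17B7 are also known to have closely similar pseudogenes, which could take a share of their reads.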

How the data were processed

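RNA of LNCaP-abl cells was sequenced in 13 libraries, 1 per siRNA group. Alignment was by TopHat and quantification by Cufflinks on build hg19, per the submitters' processing notes; no source used here gives versions or strand use. The authors deposited log2 values of FPKM for 22613 entries. Their lowest value was the log2 of 0.1, so an offset of 0.1 was assumed and subtracted to return the authors' FPKM. The sorted values differed between libraries by at most 0.056 (log2), and the deposited values thus appear to have been brought to a common distribution, a step no label records. That scaling removes any difference in total RNA. Without counts, depth is unknown, and no counting interval or floor is given.

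Differences were taken on log2(FPKM + 1), which understates the change of low genes, against the control library and against the median of the other 11 knockdowns. Genes with a mean of at least 0.5 FPKM over the libraries (16432) form the background, and a gene counts as called at 2-fold or 1.5-fold. Python 3.11.15, pandas 2.3.3 and numpy 2.4.6 were used, and the steps were tested on simulated data. The members and lists were chosen with earlier results of these data known. Named in full are up to 4 members per role with the widest range, and per knockdown the 2 largest increases and decreases; other pathway genes are named where they reach 2-fold. FASN was added in full after its values were seen. Other settings tried were a pseudocount of 0.1, no filter, median centring, quantile normalization, other branch lists, Spearman's rho and libraries left out. RefSeq tables of GRCh38.p14 gave names, overlaps and promoters; that build differs from hg19, and its coordinates belong to the promoters only.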

Additional observations from a re-analysis of the deposited data

How the results depend on the processing

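No paired analysis was possible because each group had 1 library. With no replicates, a median was taken as moved where it changed by more than its SD over the 12 knockdowns (0.15 for sterol, 0.21 for fatty acid enzymes and 0.21 for the gap between them). A pseudocount of 0.1 and median centring moved none of the medians they were applied to. Quantile normalization could not move them, since the deposited values already share a distribution, and leaving out the lowest and highest sterol enzyme leaves a median as it is by construction. Against the other 11 knockdowns, the fatty acid medians were -0.28 in siBRCA1, 0.25 in siBRCA2, 0.13 in siCTCF, 0.020 in siEED, -0.13 in siEZH2, -0.37 in siFOXA1, 0.11 in siFOXM1, -0.14 in siKDM1A, 0.057 in the library labelled siMALAT1, 0.085 in siPCAT1, 0.16 in siRAD21 and -0.18 in siSMARCA4. The sterol median of siPCAT1 was then 0.29. The gaps between branches were then 0.49 in siBRCA1, -0.027 in siBRCA2, 0.038 in siCTCF, -0.19 in siEED, 0.18 in siEZH2, 0.083 in siFOXA1, -0.45 in siFOXM1, -0.031 in siKDM1A, -0.084 in the library labelled siMALAT1, -0.13 in siRAD21 and -0.0064 in siSMARCA4. The change of reference is by its construction the loss of the control library. With ACLY, ACACA, FASN, ELOVL6 and SCD alone, the siCTCF fatty acid median was 0 and its gap 0.039, and the siFOXM1 gap turned to -0.13, so the sterol median was then the higher one in 11 of 12 knockdowns; with INSIG1 and STARD4 added, the siEZH2 sterol median was -0.11; the cause was not tested.

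Of the 15 member differences of at least 2-fold, none changed sign, but 10 moved by more than the gene's SD against the other knockdowns. Counts of all genes at least 2-fold from the control rose with a pseudocount of 0.1, to 983 in siBRCA1, 950 in siBRCA2, 1512 in siCTCF, 1016 in siEED, 1492 in siEZH2, 2415 in siFOXA1, 1946 in siFOXM1, 1232 in siKDM1A, 961 in the library labelled siMALAT1, 861 in siPCAT1, 1298 in siRAD21 and 1067 in siSMARCA4, from 460 to 1482. At 1.5-fold they were 1599, 1425, 2378, 1508, 2329, 3806, 3110, 2111, 1405, 1319, 2040 and 1679 in the same order. With small RNA entries left out, a choice made after seeing the data, they were 220 in siBRCA1, 241 in siBRCA2, 246 in siEED, 363 in siKDM1A, 308 in the library labelled siMALAT1, 261 in siPCAT1, 440 in siRAD21 and 389 in siSMARCA4, so the background shares above include such entries. Without them the 2-fold shares ran from 0.741% to 4.22% lower and from 0.323% to 3.52% higher, in place of 1.36% to 5.03% and 0.992% to 3.99%; that of siCTCF lower was 2.85%, below the members' 3.33%. Leaving out each library in turn, the median r ranged from 0.26 to 0.34 for sterol pairs, 0.13 to 0.28 for fatty acid pairs (lowest without the control) and 0.036 to 0.19 across branches (lowest without siFOXA1, highest without siBRCA1). Depth could not be weighed.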

Other observations

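The liver X receptors are oxysterol sensors that promote cholesterol export. Their list of 6 genes had medians from 0.072 to 0.53 against the control in the 12 knockdowns, above 0 in every one, but below 0 in 7 of 12 against the other knockdowns. NR1H3 was below the control in 7 knockdowns, NR1H2 in 5, ABCA1 in 4 and ABCG1 in 3. MYLIP, a ubiquitin ligase that limits lipoprotein uptake, was at 5.40 FPKM in the control and up to 8.42 FPKM, with differences from 0.13 to 0.56. LPCAT3, which places polyunsaturated chains in phospholipids, was at 51.3 FPKM in the control and 148 FPKM in siFOXA1 (1.51). Both were above the control in 12 of 12 knockdowns, as were 4.7% of all genes. MYLIP was named after its values were seen, and all 12 differences share the 1 control.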
